A study of Mus musculus with 52 samples.

Results

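The 10 genes described here build the collagen-rich matrix and the cytoskeleton of fibroblasts: Col1a1, Col1a2, Col3a1, Col5a1, Col6a1, Fn1, Sparc, Postn, Lox and Vim. They were chosen by name for these roles, with earlier results of these data known. They are 10 of 21755 protein-coding genes on chromosomes 1 to 19 and X, and all 10 were found in the mouse annotation. Each gene was extended by 50 kb on either side, and a peak was assigned to a gene if it overlapped this window by at least 1 bp. No windows of the 10 genes overlap each other. Rad21 peaks were divided into those that overlapped a CTCF peak of the same genotype by at least 1 bp and those that did not, which are called Rad21 peaks without CTCF below. The second class was taken as candidates for active enhancers and promoters, and neither RNA nor a mark of active chromatin was analysed here, so that the candidates remain untested as such.

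ChIP-seq, the sequencing of DNA bound by an immunoprecipitated protein, was performed in female clones of mouse embryonic fibroblasts (MEFs), taken from the second generation of a cross between M.m.domesticus FVB and M.m.castaneus mice, so that autosomes are a mixture of both strains. The 8 peak lists used here cover 24 of 52 libraries and 3 antibodies: SmcHD1, a chromosomal protein best known from the inactive X chromosome, the insulator protein CTCF and the cohesin subunit Rad21. Each list was called on merged libraries, of which the Rad21 lists take 2 wt, 2 mut and 4 somKO, the CTCF lists 3, 3 and 4, and the SmcHD1 lists 3 wt and 3 mut. The wt lists come from a wild-type clone, and the mut lists from a clone homozygous for the germline SmcHD1 allele MommeD1. The somKO lists merge 2 knockout clones that were made by CRISPR in a further wild-type clone. Each genotype is thus represented by its own clones, genotype and clone cannot be told apart, and the copy number of these regions in each clone was not measured here. With 1 list per antibody and genotype there is no spread between replicates, no test was made, and intervals given with shares are 95% Wilson intervals that cover counting error only. Depth is unknown, since the lists give positions and scores and no reads.

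Collagens of the fibrillar class form the tensile fibres of connective tissue, and fibroblasts are their main source. Cohesin is a ring-shaped complex that forms chromatin loops and is halted by CTCF at loop anchors, whereas cohesin at enhancers and promoters of active genes is often found without CTCF. In cultured fibroblasts, matrix genes are known to be among the most highly transcribed genes.

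Rad21 peaks numbered 67655 (wt), 66031 (mut) and 89974 (somKO), and 41.1%, 41.6% and 45.1% of them were without CTCF. The CTCF lists held 60204, 57798 and 69736 peaks, and the SmcHD1 lists 6993 in wt and 244 in mut. Because the somKO lists are the longest, values for somKO are also given in lists that were shortened to the highest-scoring peaks until all 3 lists of an antibody had the length of the shortest.

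The windows of the 10 matrix genes were dense in Rad21 peaks without CTCF in every genotype. Together they held 135 Rad21 peaks (wt), 165 (mut) and 153 (somKO), of which 87, 118 and 102 were without CTCF. The wt share without CTCF was 64.4% (56.1 to 72.0), that of mut 71.5% (64.2 to 77.9) and that of somKO 66.7% (58.9 to 73.6), against 39.4%, 40.3% and 43.3% in the windows of all protein-coding genes. In lists of equal length the somKO share was 47.3%, against 31.9% in all windows, while those of wt and mut were 63.4% and 71.5%. At least 1 Rad21 peak without CTCF lay in the windows of 9 of the 10 genes in wt and of all 10 in mut and in somKO. Over all protein-coding genes this was so for 71.2% of windows in wt, 71.3% in mut and 77.9% in somKO, so that the count of genes with any such peak says little about the matrix genes.

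**Figure D1:**
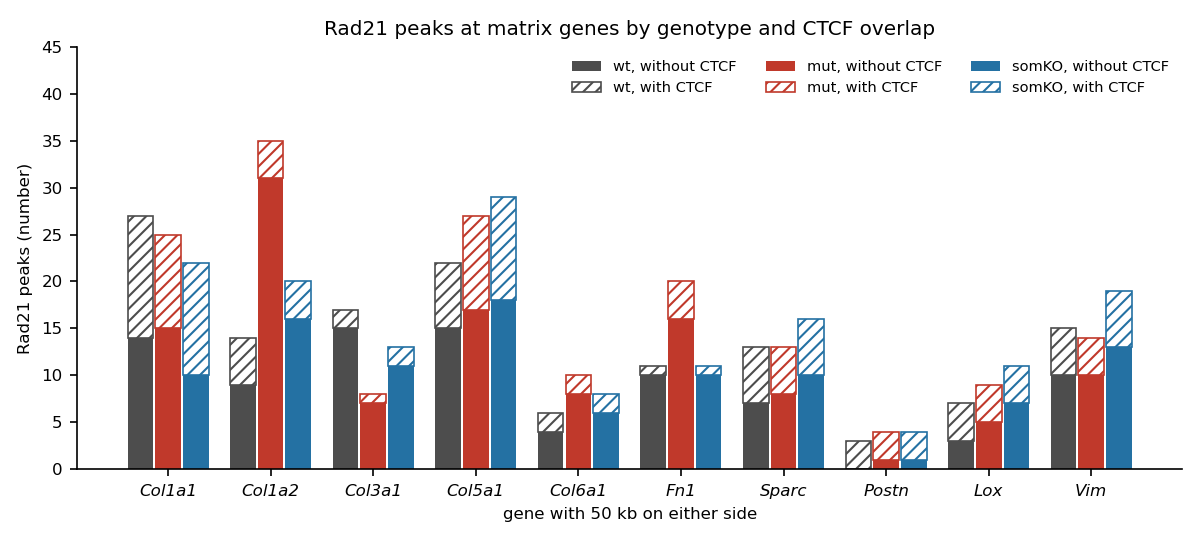
Number of Rad21 peaks (vertical axis) in the window of each gene with 50 kb on either side (horizontal axis) in wt, mut and somKO; filled bars are peaks without CTCF and hatched bars peaks with CTCF. The Col1a2 window held 9, 31 and 16 peaks without CTCF, and the Postn window 0, 1 and 1.

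Since windows differ in length, peaks were also expressed per 100 kb. The median density over the 10 genes was 5.95 Rad21 peaks without CTCF per 100 kb in wt, 6.77 in mut and 7.44 in somKO, against medians of 1.03, 1.05 and 1.79 over all protein-coding genes. Of the 10 genes, 7 lay above the 90th percentile of all protein-coding genes in wt, 8 in mut and 7 in somKO. The density of Rad21 peaks with CTCF was close to that of other genes, with medians of 3.14, 3.22 and 3.22 per 100 kb against 2.72, 2.71 and 3.39. The strength of the peaks without CTCF was also like that elsewhere: their median score stood at the 24.4th percentile of all Rad21 peaks in wt, the 24.4th in mut and the 24.6th in somKO, against 24.4, 24.9 and 26.0 for all peaks of the class.

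**Figure D2:**
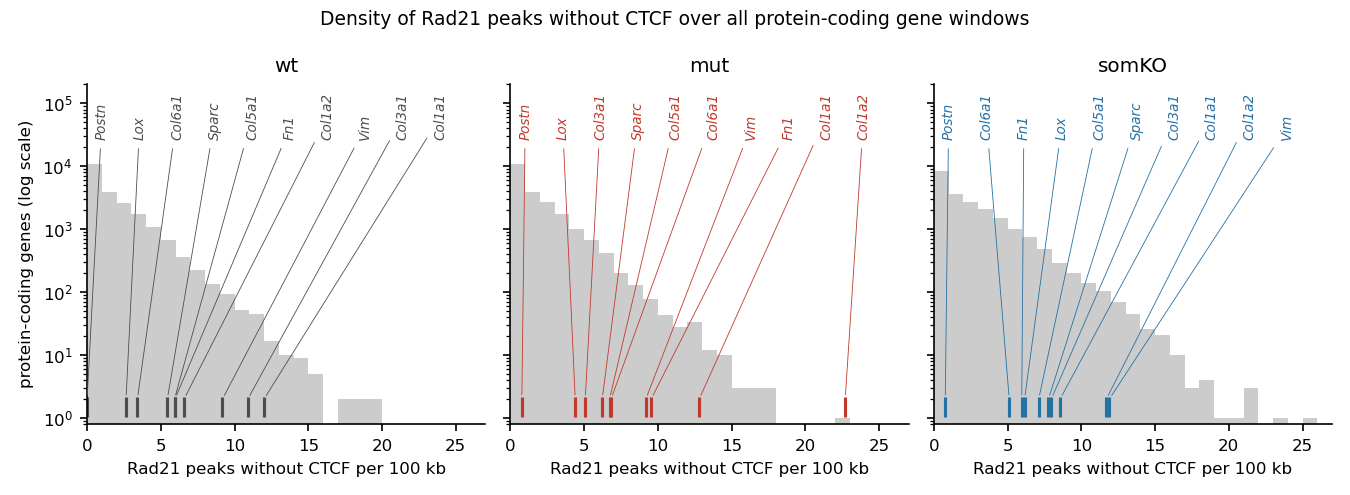
Distribution of the number of Rad21 peaks without CTCF per 100 kb (horizontal axis) over the windows of 21755 protein-coding genes (vertical axis, log scale) in wt, mut and somKO, with the 10 matrix genes as ticks joined to their names. Col1a2 in mut, at 22.7 per 100 kb, is the gene with the highest density of all, and Postn lies in the lowest bin in all 3 panels.

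Other lists of genes were set beside these. Among 33 other matrix genes the median densities were 4.69 (wt), 4.65 (mut) and 6.21 (somKO) per 100 kb, and 18 of the 33 lay above the 90th percentile in each genotype. The highest of them in wt were P4hb (8.85), a subunit of the enzyme that hydroxylates collagen, Timp2 (8.40), an inhibitor of matrix proteases, and Serpinh1 (8.34), the collagen chaperone, and the lowest was Fbln5 (0.58), an elastic-fibre protein. The 12 mesenchymal marker genes had medians of 2.11, 3.83 and 2.73 per 100 kb, with Cd44 (6.30), S100a4 (5.87) and Twist2 (4.09) highest in wt and Thy1 and Twist1 lowest at 0. The 20 markers of other cell types had medians of 1.40, 1.65 and 1.90 per 100 kb, against 1.03, 1.05 and 1.79 for all genes. Above the 90th percentile lay 3, 1 and 2 of these 20, and 2, 4 and 4 of the 12 mesenchymal genes. The highest of the 20 in wt were the endothelial gene Pecam1 (6.11), the neutrophil gene Elane (5.88) and the epithelial gene Cdh1 (4.79). The liver gene Alb, 1 of 6 at 0 in wt, stood at 0 in all 3 genotypes. Of all protein-coding genes, Socs3 (19.2), Frmd8 (19.1) and Sstr4 (18.7) had the highest densities in wt, all above the highest matrix gene, Col1a1 (12.0).

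The sequences under the strongest sites are shown for the genes whose strongest wt Rad21 peak without CTCF overlapped a Rad21 peak, and no CTCF peak, in mut and in somKO. Of these, the 3 with the highest score whose central 300 bases hold no annotated exon are printed, since the lists give no summit. At Col3a1 the overlapping mut and somKO peaks are wider and themselves reach a CTCF peak outside the wt interval. The strongest such site of Fn1 scored higher than those of Col6a1 and Col3a1 and is not printed, because 61 of its central 300 bases are exon. The fourth sequence is the SmcHD1 peak 5.02 kb upstream of Sparc, added after its values were seen because it is described below. Capitals mark the AP-1 motif TGANTCA, which reads the same on both strands, and the CTCF core motif CCANNAGNNGGC on either strand, and all are the plus strand of mm10 (RefSeq GRCm38.p6).
Col1a2, 48.3 kb upstream, chr6:4456394-4456693: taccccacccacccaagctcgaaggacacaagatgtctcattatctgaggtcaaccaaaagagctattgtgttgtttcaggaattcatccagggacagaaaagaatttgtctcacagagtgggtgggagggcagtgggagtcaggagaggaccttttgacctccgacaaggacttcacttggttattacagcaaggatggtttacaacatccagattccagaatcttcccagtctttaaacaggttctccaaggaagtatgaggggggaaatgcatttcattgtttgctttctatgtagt
Col6a1, 57.1 kb downstream of the start, chr10:76668868-76669167: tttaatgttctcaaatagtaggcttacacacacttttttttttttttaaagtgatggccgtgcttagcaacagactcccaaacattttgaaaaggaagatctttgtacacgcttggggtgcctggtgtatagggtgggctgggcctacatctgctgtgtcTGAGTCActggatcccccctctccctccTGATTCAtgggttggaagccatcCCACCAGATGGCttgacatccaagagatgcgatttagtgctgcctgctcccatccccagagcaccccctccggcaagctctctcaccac
Col3a1, intron near the start, chr1:45311986-45312285: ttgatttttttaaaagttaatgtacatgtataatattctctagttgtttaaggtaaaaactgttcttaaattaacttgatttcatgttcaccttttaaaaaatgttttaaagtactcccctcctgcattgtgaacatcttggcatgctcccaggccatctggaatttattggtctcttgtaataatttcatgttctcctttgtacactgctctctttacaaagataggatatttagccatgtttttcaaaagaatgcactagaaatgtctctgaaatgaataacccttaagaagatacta
Sparc, SmcHD1 peak in wt, chr11:55428087-55428311: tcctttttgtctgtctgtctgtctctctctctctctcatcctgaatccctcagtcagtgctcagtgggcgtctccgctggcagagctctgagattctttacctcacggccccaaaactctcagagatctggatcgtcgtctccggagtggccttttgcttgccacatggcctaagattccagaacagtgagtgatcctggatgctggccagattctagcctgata
The Col6a1 site holds 2 AP-1 motifs, at bases 161 and 189, and 1 CTCF core motif at base 212, counted from the first base shown, and the motifs do not overlap. No CTCF peak was listed there in any genotype, and the nearest wt CTCF peak lay 44.6 kb away. The other 3 sequences hold neither motif. Over the whole width of the wt peak, the Col1a2 site (4222 bp) and the Col3a1 site (2296 bp) each hold 2 AP-1 motifs, and the Col6a1 site (1550 bp) holds 3.

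AP-1, the dimer of Fos and Jun proteins, is a common factor of fibroblast enhancers, and its motif was counted in 300 bp around the midpoint of each peak. In the matrix gene windows 28.7% (20.3 to 39.0) of the Rad21 peaks without CTCF held it in wt, 22.9% (16.2 to 31.2) did in mut and 27.5% (19.7 to 36.8) did in somKO, against 24.0%, 23.4% and 24.6% of all Rad21 peaks of the class. The shares over all peaks lie within these intervals. Among Rad21 peaks with CTCF the shares were 14.6%, 14.9% and 15.7% in the matrix gene windows and 9.86%, 9.70% and 10.1% over all. By gene, the motif lay in 6 of 15 wt peaks without CTCF at Col3a1, 5 of 15 at Col5a1, 4 of 10 at Vim, 3 of 14 at Col1a1, 3 of 4 at Col6a1, 2 of 9 at Col1a2, 1 of 10 at Fn1, 1 of 3 at Lox and 0 of 7 at Sparc. The CTCF core motif lay in 3 of 87 wt peaks without CTCF (3.45%) and 9 of 48 with CTCF (18.8%), against 4.79% and 27.3% over all Rad21 peaks.

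Col1a1 and Col1a2 encode the chains of type I collagen, the most abundant collagen of connective tissue. The Col1a1 window (gene at chr11:94936224-94953042) held 14 wt, 15 mut and 10 somKO Rad21 peaks without CTCF, or 12.0, 12.8 and 8.56 per 100 kb. It was the matrix gene with the highest density in wt, with 47 of all protein-coding genes above it. It was also rich in CTCF, with 16, 12 and 14 CTCF peaks and 13, 10 and 12 Rad21 peaks with CTCF, and the window holds the coding genes Hils1, Ppp1r9b and Sgca as well. At its 5′ end lay a single wide Rad21 peak that overlapped CTCF, of 4.83 kb in wt, 5.41 kb in mut and 10.6 kb in somKO. In somKO this peak covers positions at which wt and mut have several narrower peaks, so that fewer peaks do not mean less Rad21 there: Rad21 peaks of both classes covered 26.7 kb of the window in wt, 29.0 kb in mut and 42.2 kb in somKO.

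Col1a2 (chr6:4504814-4541544) was the gene with the largest difference between genotypes. Its window held 9 wt, 31 mut and 16 somKO Rad21 peaks without CTCF, or 6.58, 22.7 and 11.7 per 100 kb, while CTCF peaks numbered 5 in each genotype. The mut value was the highest density of all 21755 protein-coding genes in that list. Most of the peaks that differed lay inside the gene: 3 in wt, 21 in mut and 9 in somKO fell within the transcribed region, against 4, 8 and 5 upstream and 2 in each genotype downstream. The 21 mut peaks inside the gene were weak, with scores from 14 to 80 and none above the 37.2nd percentile of the list. Over all 31 mut peaks of the window the median stood at the 21.7th percentile, against 24.9 for all mut peaks of the class. Inside the gene the density by peak midpoint was 8.17, 57.2 and 24.5 per 100 kb. Within gene bodies of all protein-coding genes together it was 1.61, 1.65 and 2.24, counting every peak that overlapped a body. Counted by overlap, the Col1a2 body held 4, 22 and 9 peaks. Many of these are short neighbouring peaks, and when peaks within 1 kb of each other were joined the window held 7 sites in wt, 12 in mut and 9 in somKO. Measured as covered length, Rad21 peaks without CTCF spanned 10.3 kb of the window in wt, 25.1 kb in mut and 15.6 kb in somKO. The difference of 22 peaks between mut and wt was unchanged in lists of equal length, where somKO held 6 peaks and stood below wt by 3. In the 5 Mb on either side, outside the window, Rad21 peaks without CTCF numbered 77 (wt), 82 (mut) and 102 (somKO), ratios of 1.06 and 1.32 to wt, against 0.987 and 1.46 for the whole lists.

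Upstream of Col1a2 lay 2 wide Rad21 peaks without CTCF that were present in all 3 genotypes. The farther, 48.3 kb upstream (chr6:4454433-4458654 in wt), was the strongest such site of all 10 genes in wt, though not in mut or somKO, where the promoter peak of Fn1 ranked higher, and stood at the 73.6th, 73.9th and 79.4th percentile of the wt, mut and somKO lists. The nearer, 15.7 kb upstream (chr6:4487641-4490533 in wt), stood at the 66.9th, 71.2nd and 78.0th percentile. The nearest CTCF peaks were 36.9 kb and 15.6 kb away in wt. Both percentiles were higher in mut and in somKO than in wt, by little in mut for the farther site. The somKO list is longer than the wt list, so its percentiles do not compare ranks with those of wt. Of 24 peaks gained in mut in this window, 6 were also listed as Rad21 peaks in somKO, and of the 18 with their midpoint inside the gene, 3 were. In the windows of all 10 genes this was so for 23 of 55 gained peaks (41.8%, 29.7 to 55.0), and in those of all protein-coding genes for 46.8%.

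**Figure D3:**
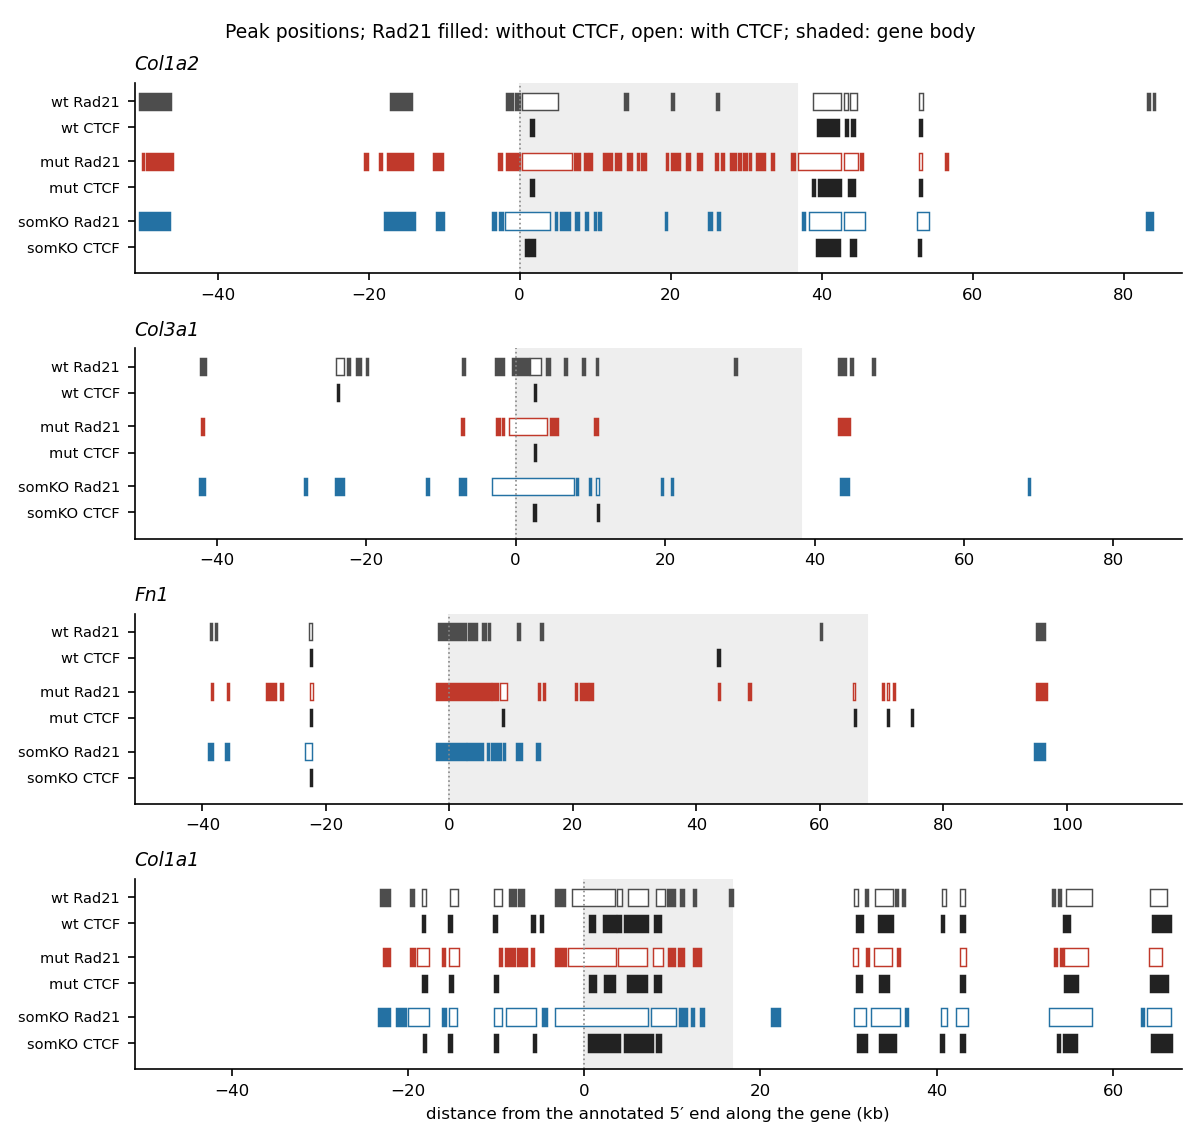
Positions of Rad21 and CTCF peaks by distance from the annotated 5′ end along the gene (horizontal axis, kb) in wt, mut and somKO at Col1a2, Col3a1, Fn1 and Col1a1; filled Rad21 boxes are without CTCF, open boxes with CTCF, black boxes are CTCF peaks, the gene body is shaded, and narrow peaks are drawn at a fixed least width. The 21 mut peaks without CTCF within Col1a2 and the wide open box over the start of Col3a1 in mut (5.13 kb) and somKO (10.9 kb) can be seen.

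Col3a1 (chr1:45311538-45349706) encodes type III collagen and went the other way. Its window held 15 wt, 7 mut and 11 somKO Rad21 peaks without CTCF, or 10.9, 5.07 and 7.96 per 100 kb, and 14, 7 and 4 in lists of equal length. CTCF was scarce, with 2, 1 and 2 peaks. The count at the start of the gene changed class as well as number: in wt a Rad21 peak of 2.30 kb at the promoter (chr1:45310988-45313283) ended 0.68 kb short of the nearest CTCF peak, where a separate Rad21 peak overlapped CTCF. In mut a peak of 5.13 kb and in somKO a peak of 10.9 kb spanned both the promoter and a CTCF peak. These wider peaks stood at the 82.3rd and 87.5th percentile of their lists, which differ in length from that of wt. The wt promoter peak stood at the 63.6th and its neighbour with CTCF at the 78.4th. Rad21 peaks of both classes covered 12.0 kb of the window in wt, 9.73 kb in mut and 17.2 kb in somKO, whereas those without CTCF alone covered 9.49, 4.60 and 5.95 kb. By covered length somKO thus stood above wt for both classes together and below it for peaks without CTCF. Of the 15 wt peaks without CTCF, 7 were listed in all 3 genotypes and 6 in wt alone. In the surrounding 5 Mb on either side the numbers were 70, 103 and 87, higher in mut than in wt by a ratio of 1.47, the opposite of the window.

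Col5a1 (chr2:27886425-28039514), whose product starts and limits the width of type I collagen fibrils, is the longest of the 10 genes. Its window held 15, 17 and 18 Rad21 peaks without CTCF, or 5.93, 6.72 and 7.11 per 100 kb, of which 10 in each genotype lay in the 50 kb upstream. The strongest wt site among them, 28.0 kb upstream (chr2:27857359-27859519), overlapped a CTCF peak in somKO and none in wt or mut. In lists of equal length the counts were 13, 17 and 7. Col6a1 (chr10:76708792-76726168), a chain of the beaded type VI collagen, had 4, 8 and 6 Rad21 peaks without CTCF, or 3.41, 6.82 and 5.11 per 100 kb. All 4 wt peaks were Rad21 peaks in all 3 genotypes, and none was inside the gene. The strongest, 57.1 kb downstream of the start, stood at the 63.8th, 64.8th and 75.2nd percentile in wt, mut and somKO.

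Fn1 (chr1:71585520-71653200) encodes fibronectin, the adhesive glycoprotein on which fibroblasts assemble other matrix proteins. Its window held 10 wt, 16 mut and 10 somKO Rad21 peaks without CTCF, or 5.96, 9.54 and 5.96 per 100 kb, and only 1, 4 and 1 with CTCF. Its promoter carried a wide Rad21 peak free of CTCF in every genotype, of 4.58 kb in wt (chr1:71650453-71655033), 8.89 kb in mut and 4.83 kb in somKO, and Fn1 was the only matrix gene of which this was true at the annotated gene start. This peak stood at the 71.8th, 77.4th and 80.7th percentile of its list. The nearest CTCF peak lay 20.4 kb away (wt), 1.89 kb (mut) and 20.1 kb (somKO), since the mut list has additional CTCF peaks in the window (2, 5 and 1). Of the 16 mut peaks 12 were gained, and 3 of these 12 were also listed in somKO. The 12 had scores from 17 to 83, none above the 38.5th percentile of the mut list.

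The matricellular proteins Sparc and Postn bind collagen and shape the matrix without being structural fibres. The Sparc window (chr11:55394500-55423183) held 7, 8 and 10 Rad21 peaks without CTCF, or 5.44, 6.22 and 7.77 per 100 kb, and 6 of its 7 wt peaks were Rad21 peaks in all 3 genotypes. The strongest in wt, 5.38 kb upstream of the annotated start, overlapped an SmcHD1 peak. Postn (chr3:54361109-54391037) stood apart from the other 9 genes: its window held 0, 1 and 1 Rad21 peaks without CTCF, 3 with CTCF in each genotype and 5, 4 and 5 CTCF peaks. It stood at the 14.4th, 36.5th and 28.2nd percentile of all genes. The wt value is the mean rank of a tie, since 6261 of 21755 windows held no such peak in wt. The surrounding 5 Mb held 59, 117 and 125 Rad21 peaks without CTCF, ratios to wt of 1.98 and 2.12. Lox (chr18:52516067-52529867), the enzyme that cross-links collagen and elastin, had 3, 5 and 7 Rad21 peaks without CTCF, or 2.64, 4.39 and 6.15 per 100 kb. The strongest lay 63.8 kb downstream at the promoter of another gene, Srfbp1, so that its assignment to Lox rests on distance alone.

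Vim (chr2:13573927-13582826) encodes vimentin, the intermediate filament of mesenchymal cells, and is not a matrix protein. Its window held 10, 10 and 13 Rad21 peaks without CTCF, or 9.18, 9.18 and 11.9 per 100 kb, at about the 99th percentile of all genes in all 3 lists. None of the 10 wt peaks lay in the gene and 8 lay upstream, where 5 were listed in mut and 11 in somKO. Of the 10 wt peaks, 7 were Rad21 peaks in all 3 genotypes. In lists of equal length the counts were 10, 10 and 5.

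The starts of the genes were then compared, within 1 kb on either side of the annotated 5′ end. A Rad21 peak of either class lay at the start of 8 of the 10 genes in each genotype, all but Sparc and Postn, against 48.2% of all protein-coding genes in wt, 53.0% in mut and 54.0% in somKO. These promoter peaks were wide. In wt 7 of the 10 genes had a promoter peak broader than 99% of all Rad21 peaks of the list (over 3.86 kb), in mut 6 (over 3.99 kb) and in somKO 6 (over 5.10 kb), against 1.60%, 1.96% and 2.06% of all protein-coding genes. This count was chosen after the maps of the peaks had been seen. The wide promoter peaks of Col1a1, Col5a1 and Vim overlapped CTCF peaks and passed this width in all 3 genotypes, as did that of Col1a2.

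A Rad21 peak without CTCF lay at the start of 3 of the 10 genes in wt (Col1a2, Col3a1 and Fn1), 3 in mut (Col1a2, Col6a1 and Fn1) and 1 in somKO (Fn1), against 26.5%, 25.5% and 26.0% of all protein-coding genes. This count depends on the annotated start: the longest transcript of Sparc begins upstream of the others, and with the starts of all annotated transcripts 4 genes were counted in wt, 5 in mut and 2 in somKO, against 30.6%, 30.0% and 31.1% of all protein-coding genes. The genes added were Col1a1 in wt, Col1a1 and Sparc in mut, and Col1a2 in somKO. At 5 of the 8 Sparc transcript starts a Rad21 peak overlapped CTCF in wt and in somKO and was free of it in mut. Col1a2 had peaks of both classes at its starts. Of its 7 transcript starts, 4 in wt, 7 in mut and 1 in somKO had a Rad21 peak without CTCF. A Rad21 peak with CTCF lay at 3 of the 7 in each genotype.

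The next comparison asked how far the peaks were shared between genotypes. A wt peak was called lost if it overlapped no peak of the same antibody in the other genotype, and a peak of the other genotype was called gained where no wt peak overlapped it. In the matrix gene windows 23 of 87 wt Rad21 peaks without CTCF, or 26.4% (18.3 to 36.6), were lost in mut, against 42.7% in the windows of all protein-coding genes. Of 118 mut peaks, 55 or 46.6% (37.9 to 55.6) were gained, against 49.1% over all windows. Without Col1a2 the gained share was 35.6%. In somKO 15 of 87 wt peaks, or 17.2% (10.7 to 26.5), were lost, against 13.8%, and 55 of 102 somKO peaks, or 53.9% (44.3 to 63.3), were gained, against 58.9%. In lists of equal length the somKO shares were 27.7% lost and 18.2% gained, against 25.1% and 35.0% over all windows. Rad21 peaks in all 3 genotypes were found at 61 of the 87 wt peaks, or 70.1% (59.8 to 78.7), against 54.8% over all windows. In the lists as deposited and with an overlap of 1 bp, the background lay above the interval of the share lost in mut and within those of the other 3 shares. This depended on the processing: with 50% reciprocal overlap the share lost in mut was 55.3% (46.1 to 64.1) against 52.9%, without Col1a2 the share gained in mut had an interval of 26.4 to 46.1 that lies below 49.1%, and in lists of equal length the share gained in somKO had an interval of 9.51 to 32.0 that lies below 35.0%. Peaks of 1 window share their surroundings, and the difference from the background was not tested.

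**Figure D4:**
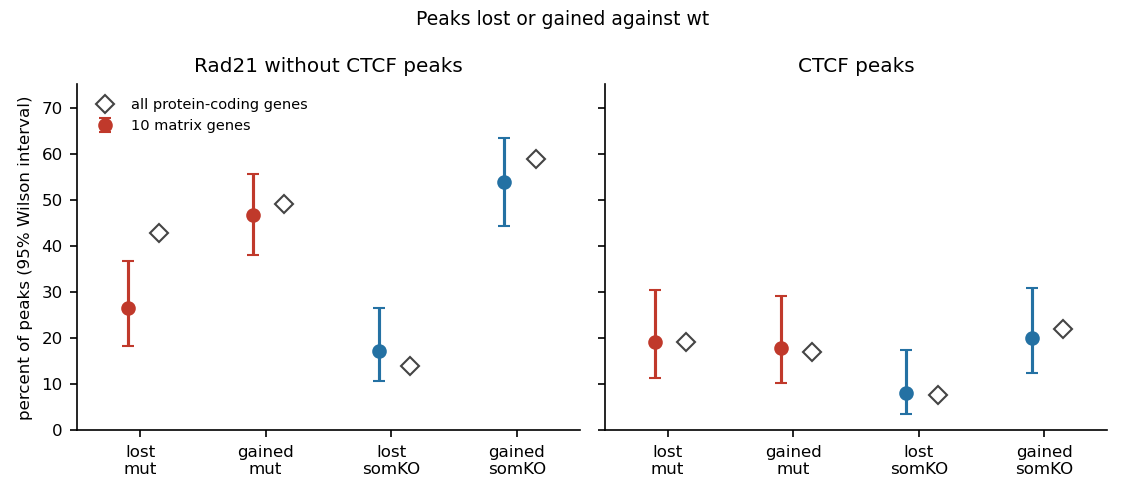
Percent of wt peaks lost and of mut or somKO peaks gained (vertical axis) for Rad21 peaks without CTCF (left) and CTCF peaks (right); filled points are the windows of the 10 matrix genes with 95% Wilson intervals and open diamonds all protein-coding gene windows. The share of wt Rad21 peaks without CTCF lost in mut, 26.4%, lies below the 42.7% of all windows, and the CTCF shares lie beside theirs.

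The shares of CTCF peaks lost and gained at the matrix genes were close to those elsewhere. The windows held 63 CTCF peaks (wt), 62 (mut) and 70 (somKO). Of the 63 wt peaks, 12 were lost in mut and 5 (7.94%) in somKO, against 19.2% and 7.63% over all windows. Of the CTCF peaks in mut 11 of 62 (17.7%), and in somKO 14 of 70 (20.0%), were gained, against 16.9% and 22.0%. A larger part of the CTCF peaks overlapped Rad21 than elsewhere, 82.5% (71.4 to 90.0) in wt, 87.1% (76.6 to 93.3) in mut and 90.0% (80.8 to 95.1) in somKO, against 67.5%, 68.9% and 74.7%. Rad21 peaks are wide at these genes, with a median of 1031 bp in wt for those with CTCF against 745 bp over all, and the part of width in this overlap was not tested.

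Counted by gene, Rad21 peaks without CTCF were at least 2 times as many in mut as in wt at Col1a2 (3.44 times) and Col6a1 (2.0 times), and at least 2 times as many in wt as in mut at Col3a1 (2.14 times), of 9 genes with at least 5 peaks in either list. Over all protein-coding genes with that number of peaks, 16.6% passed this threshold in the first direction and 18.5% in the second. In somKO only Lox passed it, with 2.33 times the wt count, against 32.0% of genes higher in somKO and 3.40% higher in wt. By the size of the difference, of 5347 genes compared, 3 had a larger rise in number from wt to mut than the 22 of Col1a2, and 56 had a larger fall than the 8 of Col3a1. Of the 9 genes with at least 5 peaks in any list of equal length, 3 (Col1a2, Col5a1 and Fn1) there differed from wt in opposite directions in mut and somKO by at least 3 peaks each, against 3.27% of 5543 protein-coding genes with that number. That background was not matched for peaks per window, and a move of 3 peaks is easier to reach where a window holds more. The cut took the somKO Rad21 list from 89974 to 66031 peaks by score and left that of mut whole, which by itself lowers somKO counts. Without Col1a2 the 9 other windows held 78 wt, 87 mut and 86 somKO Rad21 peaks without CTCF.

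**Figure D5:**
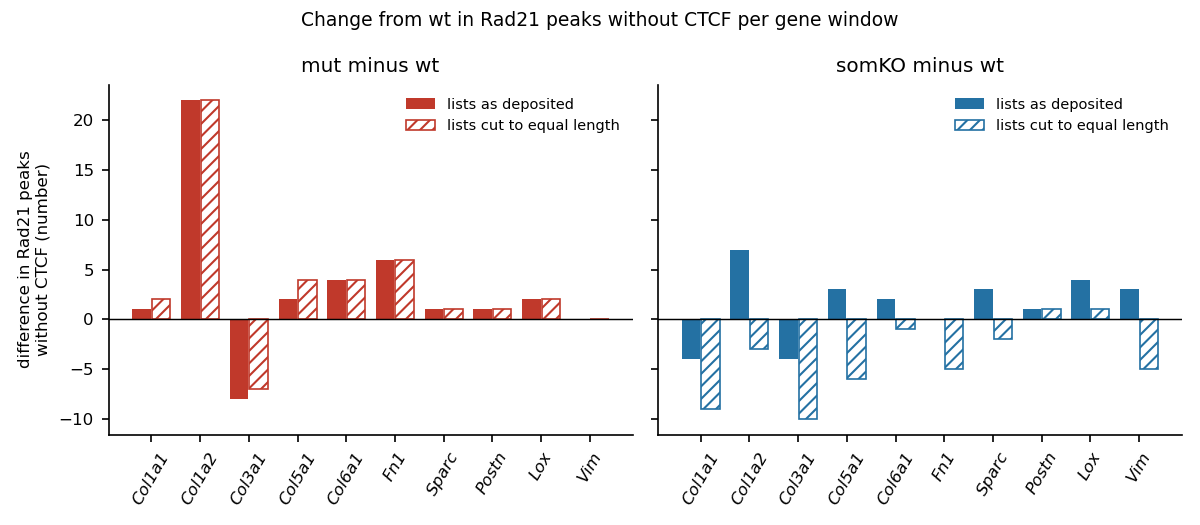
Difference from wt in the number of Rad21 peaks without CTCF per gene window (vertical axis) for mut (left) and somKO (right), in the lists as deposited (filled) and in lists of equal length (hatched). The mut differences keep their direction, from 22 at Col1a2 to -7 at Col3a1 in lists of equal length, whereas in somKO those of Col1a2, Col5a1, Col6a1, Sparc and Vim turn from above to below wt.

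Summed over the 10 windows, covered length gave the same order for mut. Rad21 peaks without CTCF covered 66.3 kb of the 10 windows in wt, 93.4 kb in mut and 85.7 kb in somKO, ratios to wt of 1.41 and 1.29, against 0.983 and 1.62 over all chromosomes. Most of the mut rise lay at Col1a2, from 10.3 kb in wt to 25.1 kb, and at Fn1, from 10.2 to 18.1 kb. Covered length fell in mut at Col3a1, from 9.49 to 4.60 kb, and at Col5a1, from 11.1 to 9.68 kb. At Col5a1 this was the opposite of the number of peaks, which rose from 15 to 17. Rad21 peaks of both classes covered 150.0, 185.0 and 230.0 kb, ratios of 1.23 and 1.53 against 1.02 and 1.63.

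SmcHD1 peaks were few at the matrix genes. The wt list held 2 peaks in the windows, 1 each in the windows of Col1a1 and Sparc, and the mut list held 0 there. A share of 2 in 10 genes equals the 20.0% of all protein-coding genes with at least 1 wt SmcHD1 peak. The peak in the Col1a1 window (chr11:94992019-94992333) lay 56.0 kb downstream of the start of Col1a1 at the promoter of Ppp1r9b, and overlapped Rad21 in all 3 genotypes and CTCF in mut and somKO. The peak in the Sparc window (chr11:55428087-55428311), whose sequence is given above, overlapped Rad21 in all 3 genotypes and CTCF in none. Both stood at the 39.5th percentile of the wt SmcHD1 list, and neither had a score of 50 or more. The other 8 windows, those of Col1a2, Col3a1 and Fn1 among them, held none in either list.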

How the data were processed

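The authors performed ChIP-seq in MEF clones. They fixed chromatin with EGS and formaldehyde for SmcHD1 and Rad21, and for CTCF they used formaldehyde only. Reads of merged replicates were aligned with bowtie2 to mm10 in which strain variants were masked. MACS2 then gave narrow peaks at q below 0.05 from both alleles together. Versions and the use of inputs are not given in the sources used here. The deposited lists give positions and a score, a unit read from its lowest value (13 in each list) as 10 times -log10 of q, and the score was used only within a list. The other 28 libraries (H3K27me3 and inputs) were not analysed here.

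Genes were taken from GENCODE M21 and sequences from RefSeq GRCm38.p6. Positions count from 1. Overlap meant at least 1 bp, and percentiles were taken over 21755 protein-coding genes. A gene was compared by fold between genotypes if either list held at least 5 peaks. Motifs were searched in 300 bp around peak midpoints. Members and gene lists were chosen with earlier results of these data known. All 10 members are named. Of each other list the 3 genes with the highest and the 1 with the lowest wt density are named, and of all genes the 3 highest; genes tied at 0 are named after their values were seen. Python 3.11.15, pandas 2.3.3, numpy 2.4.6, scipy 1.17.1 and pysam 0.24.0 were used. The counting was tested on simulated lists. Alternatives varied list length, score, overlap, CTCF definition, window and promoter.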

Additional observations from a re-analysis of the deposited data

Results flagged for a closer look

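In lists of equal length, 3 of the 10 genes differed from wt in opposite directions in mut and in somKO by at least 3 Rad21 peaks without CTCF each. At Col1a2 the difference was 22 in mut and -3 in somKO, at Col5a1 it was 4 and -6, and at Fn1 it was 6 and -5. The peaks gained in mut at Col1a2 and Fn1 had low scores, none above the 38.5th percentile of the mut list. The difference between the genotypes was not tested, since each has 1 list, and genotype and clone cannot be told apart. Of the genes with at least 5 such peaks in any of these lists, a limit chosen after the data were seen, these are 3 of 9, against 181 of 5543 protein-coding genes, or 3.27%. The 3 windows held 9, 13 and 10 such peaks in wt, and the background was not matched for peaks per window. A move of 3 peaks is easier to reach where a window holds more, so the 2 shares are not for like windows. In the lists as deposited somKO stood 7 above wt at Col1a2, 3 above at Col5a1 and level with it at Fn1. At Col5a1 the length covered by such peaks in those lists was lower in mut than in wt, 9.68 against 11.1 kb. The cut to equal length falls mostly on somKO. Over all protein-coding windows it took Rad21 peaks without CTCF from 32585 to 17732 in somKO and from 22543 to 21575 in wt. Those of mut stayed at 22913. A somKO count below wt in these lists is therefore not shown to be a difference between genotypes.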

How the results depend on the processing

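No paired analysis was possible because each group has 1 list. Of the values for all 10 genes, 91 stayed within the interval of the share or within 1.5 times the count and 33 moved. With a score of at least 50, the shares of Rad21 peaks without CTCF were 50.6% (wt), 56.0% (mut) and 52.9% (somKO), the count 45, 56 and 55, and the median density 2.85, 3.53 and 3.73 per 100 kb. The share lost in somKO was then 6.67%, against 10.3% over all protein-coding windows, and SmcHD1 peaks numbered 0. With 50% reciprocal overlap the shares without CTCF were 84.4%, 84.2% and 88.2%, promoters with such a peak 8 in each genotype, the lost shares 55.3% in mut and 57.9% in somKO, and the gained shares 64.0% and 65.9%. Over all protein-coding windows the shares without CTCF were then 68.0%, 67.9% and 69.6%, the lost shares 52.9% and 47.1%, and the gained shares 55.3% and 62.6%, so that the share lost in mut was no longer below that of all windows. The promoter count at this setting has no matching share over all protein-coding genes, so it says nothing about the matrix genes. With no CTCF peak within 1 kb the share in mut was 56.4%, against 32.3% over all protein-coding windows.

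In lists of equal length the somKO share was 47.3%, the count 44, the median density 3.20 per 100 kb, the lost share 27.7% and the gained share 18.2%. Differences between somKO and wt reversed there to -3 at Col1a2, -6 at Col5a1, -1 at Col6a1, -2 at Sparc and -5 at Vim. With promoters of 2.5 kb, 5 genes counted in mut and 4 in somKO. The share of all protein-coding genes was not taken at that width, so these counts are not read as a result. Alternatives chosen after seeing the data gave 75 joined sites in mut, a gained share in mut of 35.6% without Col1a2, and, with every annotated transcript start, 5 promoters in mut and 2 in somKO. For the moved shares the matching values over all protein-coding genes in lists of equal length are given in the report, and those at a score of at least 50 were 28.0%, 27.6% and 32.5%. No list gives depth or replicates, peak number follows both the length of a list and the splitting of wide peaks, and the causes of the moves were not tested.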
